A study of Mus musculus with 16 samples.

Results

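After octanol exposure of S100a5-tauGFP mice, GFP+ cells sorted from the olfactory mucosa were compared with the GFP- cells. The comparison holds 8 of the series' 16 arrays, 4 of each fraction, chosen by the exposure, fraction and replicate number in the sample labels. Each array measured RNA of cells sorted by FACS from a pool of 3 mice, and the GFP+ and GFP- arrays of 1 replicate number were taken to be 1 pool. The mice, of both sexes and 7 to 12 weeks old, sat singly in clean air chambers for 40 h and received 10 s pulses of octanol every 20 min from 26 h on. The other 8 arrays hold the same fractions of S100a5-tauGFP mice given filtered air as vehicle. All mice of both exposures carry the reporter, which is read from the S100a5 gene, so GFP- cells are mucosal cells of the same mice below the sort gate and include every cell type without the reporter.

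Each olfactory sensory neuron transcribes 1 odorant receptor gene of a very large family and sends its axon to the glomeruli of that receptor. Odor binding raises cAMP through the G protein Golf and adenylyl cyclase, which opens a cyclic nucleotide-gated channel and then a calcium-activated chloride channel. Neurons that are active over hours change the transcription of a set of genes, among them S100a5, which encodes a calcium-binding protein, and genes for adhesion molecules that sort axons. In this assay GFP+ cells are taken as the neurons with a recent history of activity, and the receptors enriched in them are read as candidates for the odor or for the background of the chamber. The mucosa also holds immature neurons and their progenitors, sustentacular cells, Bowman glands, microvillar cells and blood cells.

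Values were log2 signals of 19505 genes, 1091 of them odorant receptor genes, with array medians of 7.42 to 7.70. Arrays of 1 fraction correlated at 0.9905 to 0.9936 (GFP+) and 0.9916 to 0.9937 (GFP-) over genes, and arrays of different fractions at 0.9436 to 0.9648. S100a5 read 16.77, 16.77, 16.86 and 16.79 log2 in the GFP+ arrays of replicates 1 to 4 and 16.09, 15.89, 15.98 and 15.78 in the GFP- arrays. It was 1.82-fold higher in GFP+ cells (difference 0.86, SE 0.12, adjusted p = 0.000461, limma), which is the gene the sort selects, and with arrays centred on receptors the difference was 0.37 (adjusted p = 0.061). Omp, the marker of mature sensory neurons, read 18.16 to 18.24 in GFP+ and 17.98 to 18.18 in GFP- arrays and was not called (difference 0.12, adjusted p = 0.35; -0.38 with arrays centred on receptors and 0.39 centred on their medians). The GFP+ arrays of replicates 3 and 4 held more blood cell signal than those of replicates 1 and 2: the 14 neutrophil genes averaged 8.32 and 8.82 log2 there against 7.21 and 7.26, and 13.55 to 14.59 in GFP- arrays. Its part in the results was not tested, and counts without these 2 pools are given where they differ from the main ones by over 1.5 times.

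The fractions differed in 29.9% of genes. GFP+ cells were higher in 3257 genes (16.7%) and lower in 2569 (13.2%), with a median difference of 0.14 over all genes tested. The lower genes moved further: 1553 (7.96%) were lower by at least 2-fold and 496 (2.54%) higher by at least 2-fold. Among genes other than odorant receptors, 358 were at least 8-fold lower and 2 at least 8-fold higher. Odorant receptors differed on both sides, with 51 at least 8-fold higher and 72 at least 8-fold lower. Values of the 8 arrays did not overlap between the fractions for 28.0% of genes, and 47.3% had a difference of the same sign in all 4 pools. The number of higher genes was 1799 without replicate 1, 1970 without replicate 4 and 1585 without replicates 3 and 4, where 1962 were lower. The balance of directions rests on how arrays are scaled: higher genes made up 55.9% of the called genes on the deposited scale. The share was 5.78% when arrays were centred on receptors, 63.4% under quantile normalization and 84.9% under median centring. Centred on receptors, the all-gene median was -0.36. In the plot of gene levels, the largest falls lie among blood cell genes and the largest rises among receptors.

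**Figure D1:**
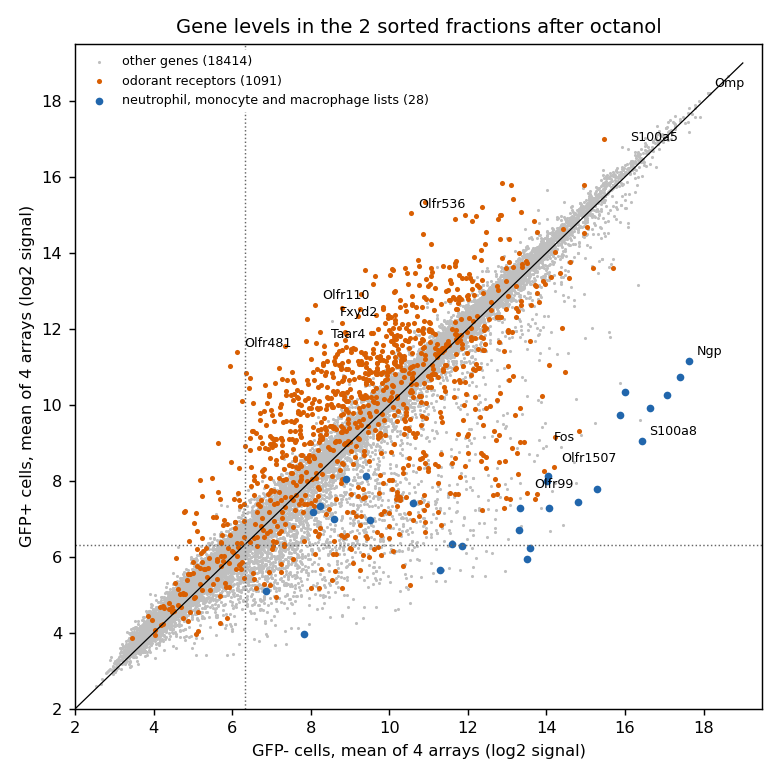
Mean log2 signal of each gene in the 4 GFP- arrays (x axis) and the 4 GFP+ arrays (y axis) after octanol, with odorant receptors in orange, the neutrophil and monocyte lists in blue, other genes in grey, the line of equal levels and, dotted, the background of 6.32 log2. Receptors such as Olfr110 lie far above the line and others such as Olfr99 far below it, while S100a5 and Omp lie close to it.

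Odorant receptors, the odor-binding proteins of the cilia, were divided between the fractions by gene: 514 of 1091 were higher in GFP+ cells and 236 lower, with a median difference of 0.58. Without replicates 3 and 4 the counts were 428 and 178. Of 874 receptors with all 8 arrays above the background of 6.32 log2, a level set from vomeronasal receptor genes that this tissue mostly lacks, 448 were higher and 172 lower. Of the called receptors 68.5% were higher, a share of 51.8% when arrays were centred on receptors, 69.1% under quantile normalization and 74.2% under median centring. In sorted pools, fewer cells that choose a receptor and less RNA per cell cannot be told apart. Probes of closely related receptors can also share target sequence, and this was not tested.

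The largest rise of a receptor measured in both fractions was that of Olfr110, of class II. It read 13.17, 13.27, 11.75 and 12.34 log2 in the GFP+ arrays and 8.13, 8.92, 7.92 and 7.50 in the GFP- arrays. It was thus 22.9-fold higher in GFP+ cells (4.52, SE 0.25, adjusted p = 7.37e-07), and the GFP+ values of replicates 3 and 4 were the low ones. Olfr536 read 15.43, 15.43, 14.37 and 14.92 against 10.05, 11.59, 10.01 and 10.54, a 22.5-fold difference. Olfr309 read 15.51, 15.45, 14.96 and 15.45 against 11.27, 12.12, 10.08 and 10.21, or 21.5-fold. In each of these receptors the lowest GFP+ value lay over 2 log2 units above the highest GFP- value. Olfr101 was higher by 4.35 (SE 0.25), Olfr323 by 4.23 (SE 0.29) and Olfr424 by 4.17 (SE 0.25). Olfr1151 had the tightest values of the group, 11.92, 11.71, 11.51 and 11.61 in GFP+ and 7.91, 7.79, 7.90 and 7.94 in GFP- arrays, a 13.9-fold difference (3.80, SE 0.12). Olfr201 and Olfr472 (both 3.75), Olfr981 (3.68) and Olfr1467 (3.64) completed the 12 largest rises measured on all 8 arrays, together with Olfr160. All of them are class II receptors, the larger of the 2 receptor classes of mammals, which holds 951 of the 1091 receptors measured. GFP+ and GFP- values did not overlap in any of the 12.

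**Figure D2:**
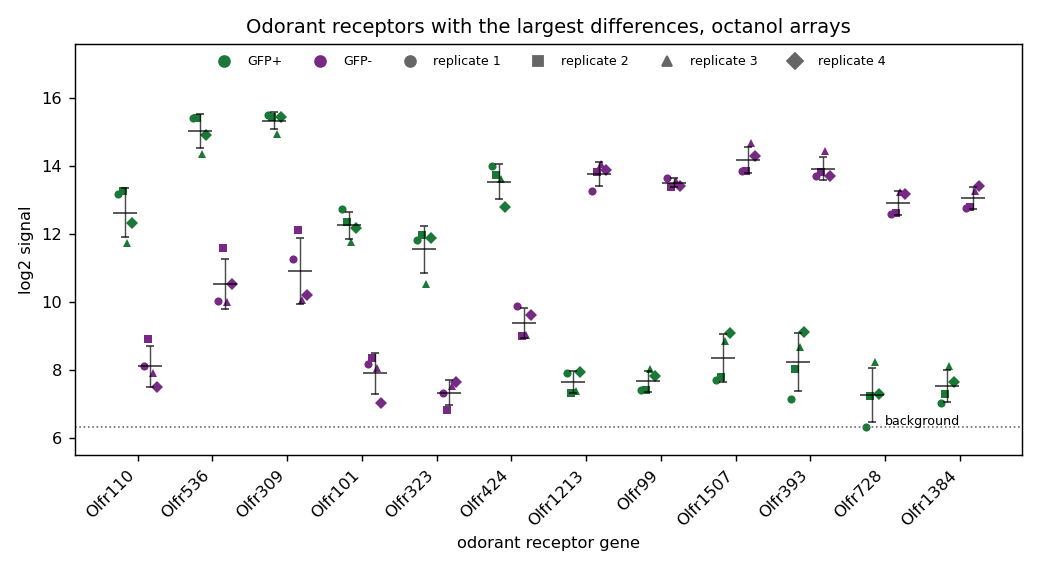
Log2 signal of 12 odorant receptors on each of the 8 octanol arrays, GFP+ in green and GFP- in purple, with 1 marker shape per replicate and horizontal bars for the mean and SD (n = 4). The 6 receptors on the left were higher in GFP+ cells on every array, the 6 on the right lower, and the dotted line marks the background.

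Other receptors were measured in GFP+ cells and lay at or under background on some or all GFP- arrays, so that only a lower bound of the fold is given. Olfr481, of class II, read 12.05, 11.33, 11.15 and 11.02 log2 in GFP+ arrays and 6.63, 6.30, 5.32 and 6.21 in GFP- arrays, and was at least 31.8-fold higher. Olfr613, the class I receptor with the largest rise, read 11.22, 11.24, 10.87 and 10.75 against 6.07, 6.07, 6.27 and 5.40, and was at least 26.0-fold higher. The remaining bounds were 19.2-fold for Olfr372, 18.2-fold for Olfr1132, 13.7-fold for Olfr494, 12.9-fold for Olfr1093, 12.1-fold for Olfr490 and 10.997-fold for Olfr970. With the background at 7.14 log2, the 99th percentile of the same genes, the bounds were 19.1-fold for Olfr481 and 14.8-fold for Olfr613. The GFP- values of Olfr1093 were the most scattered, 6.38, 9.04, 5.87 and 7.43. Those of Olfr372 (6.96, 6.69, 6.06 and 5.71) fell on both sides of the background.

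On the GFP- side the receptors were as far apart or further. Olfr1213 read 7.93, 7.33, 7.40 and 7.96 log2 in GFP+ arrays and 13.27, 13.84, 14.07 and 13.88 in GFP- arrays, 69.3-fold lower in GFP+ cells (-6.11, SE 0.38, adjusted p = 1.66e-06). Olfr99 read 7.43, 7.42, 8.04 and 7.84 against 13.67, 13.38, 13.58 and 13.42, 57.0-fold lower. Olfr1507, known as MOR28, read 7.71, 7.79, 8.85 and 9.10 against 13.87, 13.87, 14.68 and 14.31, 56.4-fold lower. All 3 were well above background on every GFP+ array, so their signal there was low but measured. For Olfr1507 the GFP+ arrays of replicates 3 and 4 were the high ones, and without them the difference was -6.12 (SE 0.14). Olfr1297 showed the same order, 8.95, 8.79, 9.87 and 9.65 in GFP+ arrays against 14.44 to 15.08 in GFP- arrays. Olfr393 (-5.68), Olfr728 (-5.64), Olfr1384 (-5.55), Olfr794 (-5.42), Olfr1178 (-5.14), Olfr1447 and Olfr1406 (both -5.09) and Olfr116 (-5.06) followed. Every one of these is a class II receptor, as are 951 of the 1091 receptors measured.

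Receptor genes stand in clusters. Neighbours went the same way more often than pairs of called receptors in general, yet some neighbours were divided between the fractions. In the order of the RefSeq gene table, 992 pairs of receptors are adjacent with no other measured gene between them. The differences of the paired receptors correlated at 0.21 (Pearson), and both members were called in 478 pairs. Of these, 265 were both higher, 69 both lower and 144 opposite, so 69.9% went the same way against 56.8% over all pairs of called receptors. The widest split was between Olfr99 (-5.83) and Olfr101 (4.35), which are neighbours on chromosome 17. Olfr101 read 12.73, 12.35, 11.77 and 12.19 log2 in GFP+ arrays and 8.17, 8.37, 8.07 and 7.04 in GFP- arrays, the reverse of its neighbour. Olfr728 (-5.64) lies between Olfr727 (2.18) and Olfr729 (2.41), and Olfr1447 (-5.09) beside Olfr1448 (2.37). Olfr231, next to Olfr424 (4.17), was lower by at least 16.2-fold in the mean over all pools. This bound was 13.2-fold with the background at the 99th percentile. Olfr231 read 8.81, 8.97, 6.01 and 6.79 in GFP+ and 11.44 to 12.21 in GFP- arrays. It was not called without replicate 3 (adjusted p = 0.063) or replicate 4 (adjusted p = 0.054). Without both it was at -2.75 (adjusted p = 0.23), a smaller fall than the bound, so the bound does not hold for each pool. The start site windows of the widest split are shown because these neighbours go opposite ways, from 250 bases before to 50 bases after the RefSeq start site (GRCm38.p6), 5′ to 3′ on the gene's strand, with matches to CCCNNGGG, the core read by the EBF (O/E) factors of olfactory neurons, in capitals. The core was searched on both strands and is its own reverse complement.
Olfr99 chr17:37280369-37280668 (- strand): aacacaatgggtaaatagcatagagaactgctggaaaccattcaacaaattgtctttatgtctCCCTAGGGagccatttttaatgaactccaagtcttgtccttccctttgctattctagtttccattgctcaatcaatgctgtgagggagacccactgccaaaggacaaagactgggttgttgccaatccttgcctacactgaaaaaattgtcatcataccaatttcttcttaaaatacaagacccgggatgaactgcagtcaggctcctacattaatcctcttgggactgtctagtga
Olfr101 chr17:37300435-37300734 (- strand): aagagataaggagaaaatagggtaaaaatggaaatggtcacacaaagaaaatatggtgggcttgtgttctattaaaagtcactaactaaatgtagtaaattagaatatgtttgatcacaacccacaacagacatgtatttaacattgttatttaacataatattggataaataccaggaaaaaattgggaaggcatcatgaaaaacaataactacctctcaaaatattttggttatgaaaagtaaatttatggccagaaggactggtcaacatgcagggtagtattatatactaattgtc
The window of Olfr99 holds 1 match, whose first base is at -187 from the start site, and that of Olfr101 holds none. Over all receptors with a window (925), 2.92% hold the core, with 3.20% of the higher and 3.11% of the lower ones. The letters TAATTA, a core read by homeodomain factors such as Lhx2, stand in 18.5% of receptor windows and in 4.59% of all 15691 windows, with 18.5% of higher and 21.8% of lower receptors.

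Class I receptors, the smaller class that is expressed mostly in the dorsal zone, numbered 117, of which 51 were higher and 13 lower, with a median of 0.70. Class II receptors numbered 951, with 456 higher, 216 lower and a median of 0.56. With arrays centred on receptors the medians were 0.20 and 0.06. The class I mean level was 9.03, 9.25, 8.79 and 8.71 log2 in the GFP+ arrays and 8.06, 8.35, 8.36 and 8.49 in the GFP- arrays. The gap between fractions was thus 0.97, 0.90, 0.43 and 0.22 in the 4 pools, and the GFP+ arrays of replicates 3 and 4 were again those nearer to GFP-. The difference between the classes was not tested.

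Of 13 receptors with well studied ligands, 4 were higher and 5 lower (3 and 3 without replicates 3 and 4). Olfr160 (M72), which binds acetophenone, read 12.41, 12.02, 11.54 and 11.66 log2 in GFP+ arrays and 8.49, 7.88, 8.20 and 8.37 in GFP- arrays, 12.8-fold higher. Olfr15, a broadly tuned receptor, read 15.78, 15.69, 14.84 and 15.39 against 12.70, 13.82, 12.79 and 13.33, 4.80-fold higher. Olfr691, which binds short fatty acids, was higher by 1.82 (SE 0.19). Olfr544, a receptor for azelaic acid, was at 0.72 (adjusted p = 0.03) but was not called without the replicate block (adjusted p = 0.10), nor without replicate 2 (0.80, adjusted p = 0.053), replicate 3 (0.52, adjusted p = 0.12) or replicate 4 (0.67, adjusted p = 0.098), and with arrays centred on receptors it was at 0.23. Olfr2, the I7 receptor for octanal, the aldehyde of octanol, was not higher in GFP+ cells: it read 7.60, 7.91, 6.82 and 7.22 in GFP+ and 7.39, 8.41, 7.49 and 8.04 in GFP- arrays. Its difference of -0.45 (SE 0.16) missed the threshold (adjusted p = 0.056), and it was called without replicate 1 (-0.66, adjusted p = 0.0045). Beside Olfr1507, the lower ones were Olfr1440, a musk receptor (-2.93, SE 0.22), Olfr1019 (-2.60, SE 0.67), Olfr73, a eugenol receptor (-0.91, SE 0.12), and Olfr17, the P2 receptor (-0.84, SE 0.15). Olfr1019 was not called without replicate 4 (-1.95, adjusted p = 0.075), and Olfr17 not without replicates 3 and 4 (-0.70, adjusted p = 0.071). Olfr16 (MOR23), a lyral receptor, was at -0.85 (adjusted p = 0.054; 0.035 without the replicate block). Olfr545 (-0.25; 0.02 with arrays centred on their medians) and Olfr558 (0.33; -0.17 with arrays centred on receptors) were not called.

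Trace amine-associated receptors, the second family of main olfactory receptors, which detect volatile amines, had 7 of 15 members higher in GFP+ cells, 2 lower and 6 not called, with a median of 1.21. The counts were 7 higher and 0 lower without replicates 3 and 4. Taar4, a phenylethylamine receptor, read 11.98, 11.50, 11.47 and 11.47 log2 in GFP+ arrays and 8.48, 8.29, 8.06 and 8.48 in GFP- arrays, 9.69-fold higher. This was 1 of the 2 genes outside the odorant receptor family that were at least 8-fold higher. Taar9 (2.41), Taar7b (1.71), Taar7e (1.60) and Taar8a (1.38) were also higher. Taar5, a trimethylamine receptor, was called higher but has no fold, since even its GFP+ mean lay under background. It read 6.40, 6.48, 6.49 and 5.67 in GFP+ and 4.31 to 4.79 in GFP- arrays. Taar8c was at least 2.25-fold higher and was not called without replicate 1 (1.11, adjusted p = 0.062) or replicate 2 (0.88, adjusted p = 0.053). Taar2 (-2.44, SE 0.58) and Taar7a (-1.38, SE 0.37) were lower. Taar2 read 9.15, 9.02, 7.45 and 8.61 in GFP+ and 10.48, 10.69, 11.42 and 11.40 in GFP- arrays, so the fractions of replicates 1 and 2 were closer, and it was not called from those alone (-1.50, adjusted p = 0.22). Taar7a was not called without replicate 3 (-1.09, adjusted p = 0.078) or replicate 4 (-1.13, adjusted p = 0.082), and stood at -0.56 without both.

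Outside the odorant receptor family 2743 genes were higher, but only 88 of them by at least 2-fold. Fxyd2, the gamma subunit of the sodium pump, read 12.23, 12.18, 12.00 and 12.38 log2 in GFP+ arrays and 8.41, 8.62, 8.75 and 8.42 in GFP- arrays. At 12.5-fold (3.64, SE 0.17, adjusted p = 3.31e-07) it stood apart from every other gene higher in GFP+ cells that is no chemoreceptor. Of the other genes measured above background on all 8 arrays, Ptprn came next, a protein of dense core vesicles (1.95, SE 0.17), and read 10.24 to 11.18 in GFP+ and 8.44 to 9.08 in GFP- arrays. Slc7a8, an amino acid transporter, was higher by 1.62, Rfx4, a transcription factor, by 1.56, Abca14 by 1.55, Caly, a vesicle traffic protein, by 1.49, and Galnt15, a glycosyltransferase, by 1.45. Pcdh7, a protocadherin, was higher by 1.41 (SE 0.11), Avp, the vasopressin gene, by 1.38, the protease gene Adamdec1 by 1.35, Sema3e, a secreted guidance molecule, by 1.32 and Hivep2, a zinc finger factor, by 1.31. The fractions did not overlap on any array for Fxyd2, Ptprn or Slc7a8.

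**Figure D3:**
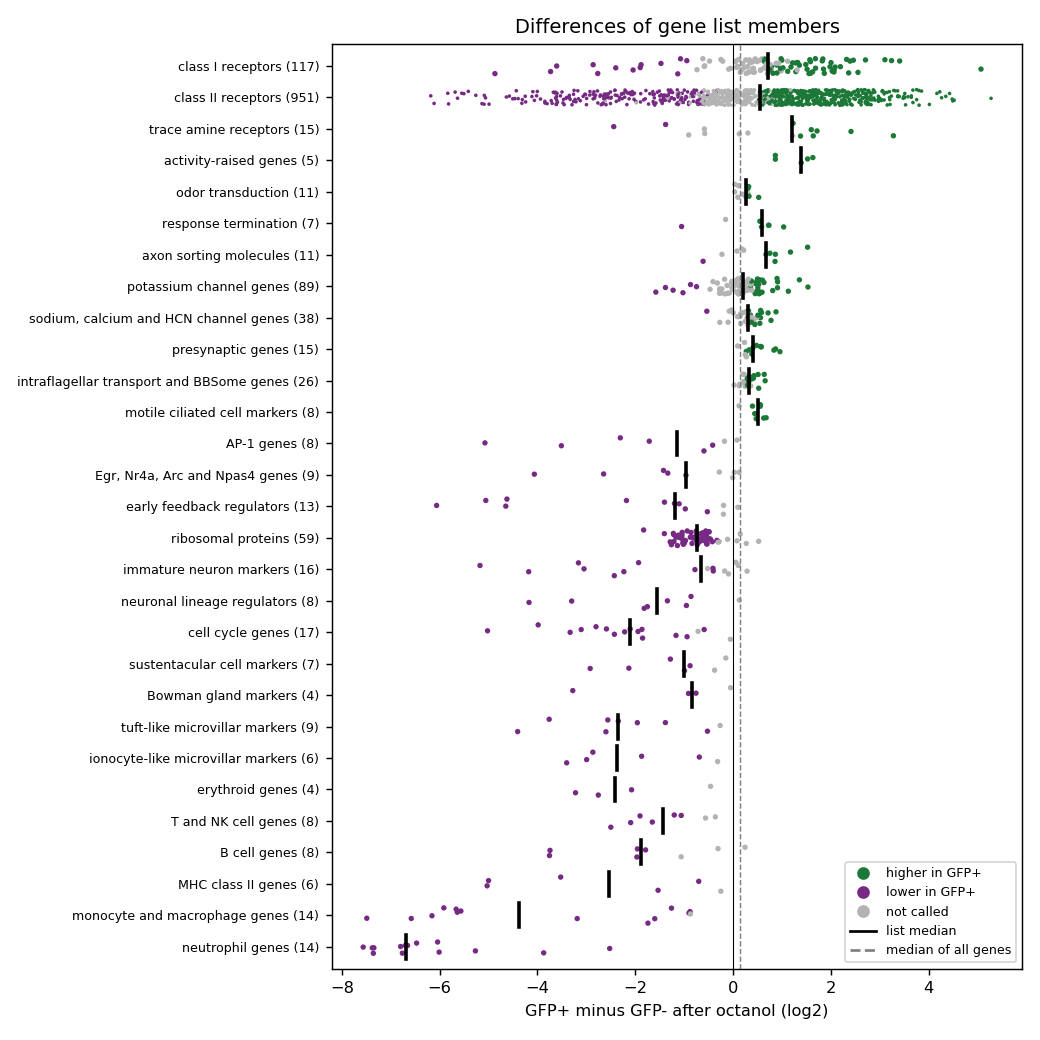
GFP+ minus GFP- difference (log2) of each member of 29 gene lists after octanol, green where higher, purple where lower and grey where not called, with the number of members in brackets, black bars for list medians and a dashed line at the median of all genes. Receptor classes spread over both sides, while blood cell, progenitor and early response lists lie on the lower side.

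All 5 genes listed as raised by activity in sensory neurons were higher in GFP+ cells, with a median of 1.39. The list holds S100a5 itself, and its members were collected for this property in related work, so its direction is no independent evidence. Pcp4l1, a calmodulin-binding protein gene, read 15.69, 15.60, 15.70 and 15.60 log2 in GFP+ arrays and 13.60, 14.09, 14.50 and 13.88 in GFP- arrays, 3.09-fold higher. The GFP+ values lay within 0.10 of each other. Pcdh10, an adhesion protocadherin, was higher by 1.52 (SE 0.20) and Lrrc3b by 1.39 (SE 0.14). For Lrrc3b pool 4 was the lowest in both fractions, with 14.63, 14.31, 14.98 and 13.63 in GFP+ and 13.54, 12.89, 13.70 and 11.86 in GFP- arrays, and GFP+ was the higher one in each pool. Kirrel2, an adhesion molecule that sorts axons by activity, was higher by 0.86 (SE 0.13) and was not called without the replicate block (adjusted p = 0.075).

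Of 11 axon sorting molecules 6 were higher and 1 lower, with a median of 0.67 that was 0.17 with arrays centred on receptors. Beside Pcdh10 and Kirrel2 they were Epha5, a receptor of ephrins (1.17, SE 0.14), Sema7a, a semaphorin (0.86, SE 0.11), Tenm2, a teneurin (0.75, SE 0.13), and Pcdh17 (0.67, SE 0.12). Sema7a read 14.07, 13.93, 14.19 and 13.99 in GFP+ and 13.17, 13.13, 13.32 and 13.13 in GFP- arrays, a small but regular gap in all pools. Plxnc1, the receptor of Sema7a, went the other way (-0.61, SE 0.14), with 9.74 to 10.05 in GFP+ and 10.31 to 11.06 in GFP- arrays, and was not called with arrays centred on their medians (-0.34, adjusted p = 0.055). Tenm2 and Pcdh17 were not called with arrays centred on receptors (0.25 and 0.17) nor without replicates 3 and 4 (0.63 and 0.59, adjusted p = 0.054 and 0.07). Of 9 positional guidance molecules, which set the target zone in the bulb, 4 were higher and 0 lower, with a median of 0.36 that turned to -0.13 with arrays centred on receptors. They were Plxna3, a semaphorin receptor (0.67), the Slit receptor Robo1 (0.63), Sema3f (0.49) and Slit1 (0.48), and none of them was called with arrays centred on receptors (0.17, 0.13, -0.01 and -0.02). Sema3f was not called without replicate 2 either (0.41, adjusted p = 0.054).

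The transduction cascade was near even between the fractions. Of 11 genes 4 were higher and 0 lower (1 and 0 without replicates 3 and 4), with a median of 0.25 that turned to -0.24 with arrays centred on receptors. Ano2, the chloride channel of the cilia, read 17.12, 17.02, 16.96 and 16.98 log2 in GFP+ arrays and 16.56, 16.59, 16.44 and 16.42 in GFP- arrays (0.52, SE 0.09; 0.02 with arrays centred on receptors). Ric8b, the exchange factor of Golf (0.33), Adcy3, the adenylyl cyclase (0.32), and Cnga4, a subunit of the cyclic nucleotide-gated channel (0.30), lay just past the threshold. With arrays centred on receptors they were at -0.17, -0.18 and -0.20, and none of the 3 was called without replicate 1 (0.25, 0.31 and 0.28), without replicate 2 (0.33, 0.30 and 0.30) or without replicate 4 (0.34, 0.33 and 0.31), nor Cnga4 without replicate 3 (0.32). The genes that end the response differed more, with 5 of 7 higher, 1 lower and a median of 0.58 (0.08 with arrays centred on receptors). They were Slc8a1, a sodium-calcium exchanger (1.03, SE 0.11), the phosphodiesterase Pde1c (0.73, SE 0.10), Slc24a4, the exchanger that clears calcium from cilia (0.72, SE 0.12), the phosphodiesterase Pde4a (0.58) and the calcium pump Atp2b1 (0.55). Slc8a1 read 12.41, 12.32, 11.94 and 12.33 in GFP+ and 11.26, 11.46, 11.01 and 11.13 in GFP- arrays and was the one higher member called under each of the 3 other scalings. Grk3, a receptor kinase, was lower in the fit (-1.05) but under background in all GFP+ arrays, at least 1.06-fold lower. The receptor transporter Rtp2, which carries receptors to the membrane, was 1 of 2 called among 3 chaperones (0 without replicates 3 and 4) and was at 0.39 (SE 0.11; -0.11 with arrays centred on receptors). It was not called without replicate 1 (0.30, adjusted p = 0.12) or replicate 4 (0.37, adjusted p = 0.092). Its window is shown because most mature neuron markers with a window hold the same EBF core, again in capitals, with the first base of the match at -202.
Rtp2 chr16:23930745-23931044 (- strand): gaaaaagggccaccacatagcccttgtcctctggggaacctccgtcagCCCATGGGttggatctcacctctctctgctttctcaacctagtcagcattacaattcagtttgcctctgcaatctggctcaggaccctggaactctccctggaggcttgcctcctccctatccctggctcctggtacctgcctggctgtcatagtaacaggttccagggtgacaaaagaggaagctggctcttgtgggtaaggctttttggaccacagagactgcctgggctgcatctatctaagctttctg
The core stood in 6 of 10 windows of mature neuron markers and in 15.5% of all windows. It was not particular to neuron genes, with 3 of 6 windows of Egr, Nr4a, Arc and Npas4 genes and 4 of 13 of neutrophil genes. Feedback regulators had it in 2 of 12 windows and ribosomal protein genes in 2 of 46. Of the 13 mature neuron markers measured, 6 were higher and 0 lower (2 and 0 without replicates 3 and 4), with a median of 0.25 (-0.24 with arrays centred on receptors). A match is a description of the letters only.

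Ion channel genes were more often higher than lower. Of 89 potassium channel genes 24 were higher and 6 lower (15 and 5 without replicates 3 and 4), with a median of 0.20 that turned to -0.30 with arrays centred on receptors. Kcng1, a modulatory subunit, read 9.81, 10.04, 11.23 and 9.07 log2 in GFP+ arrays and 7.90, 8.05, 9.83 and 8.25 in GFP- arrays (1.53, SE 0.24). Its fractions overlapped because pool 3 was high in both, while GFP+ was the higher one in each pool. Kcnmb3, a subunit of the calcium-activated BK channel (1.35, SE 0.14), Kcnn2, a small conductance calcium-activated channel (1.13, SE 0.11), Kcnh2 (0.91, SE 0.14) and Kcna6 (0.90, SE 0.17) were higher. Of the lower ones Kcnn4 was at least 1.42-fold lower, Kcnk5 at least 1.15-fold and Kcnip3 at least 2.32-fold, all near background in GFP+ cells, and Kcnk1 was lower by a fitted -1.03 (SE 0.21). Of 38 sodium, calcium and HCN channel genes 15 were higher and 1 lower, with a median of 0.31 (-0.19 with arrays centred on receptors). Scn4b, a sodium channel beta subunit, read 15.17, 15.35, 15.34 and 15.48 in GFP+ and 14.11, 14.26, 14.69 and 14.78 in GFP- arrays (0.88, SE 0.11). Cacng7 (0.77), Scn2a (0.58) and Hcn4 (0.56) were higher as deposited and not called with arrays centred on receptors (0.28, 0.08 and 0.06), nor was Cacng7 without replicate 4 (0.67, adjusted p = 0.052). Without replicates 3 and 4 the counts of this list were 4 higher and 0 lower.

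Presynaptic genes of transmitter release were 11 of 15 higher and 0 lower (6 and 0 without replicates 3 and 4), with a median of 0.40 (-0.09 with arrays centred on receptors). Syn1, a synaptic vesicle protein, read 11.74, 11.83, 10.99 and 11.22 log2 in GFP+ arrays and 10.24, 10.84, 10.37 and 10.50 in GFP- arrays (0.96, SE 0.15). Sv2b, another vesicle protein, was higher by 0.87 (SE 0.12) and Syn2 by 0.83 (SE 0.11). Syn2 read 14.20 to 14.60 in GFP+ and 13.42 to 13.68 in GFP- arrays, with no overlap. Genes of intraflagellar transport and the BBSome, which build and stock the cilia, were 15 of 26 higher and 0 lower, but 2 and 0 without replicates 3 and 4, with a median of 0.32 that turned to -0.18 with arrays centred on receptors. Ift80 (0.64), Bbs5 (0.52) and Ift172 (0.51) led them, all of them near 0 with arrays centred on receptors (0.14, 0.02 and 0.01), and Bbs5 was not called without the replicate block (adjusted p = 0.069). Markers listed for motile ciliated cells were 7 of 8 higher and 0 lower, with a median of 0.51 (0.01 with arrays centred on receptors), and 3 and 0 without replicates 3 and 4. Rsph1 (0.67, SE 0.10) and Rsph4a (0.62, SE 0.14), radial spoke genes, led them, with Rsph4a at 14.78 to 15.09 in GFP+ and 14.00 to 14.55 in GFP- arrays.

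The immediate early genes, which a stimulus switches on within minutes, were on the GFP- side. Of 8 AP-1 genes 6 were lower and 0 higher, with a median of -1.16. Fos read 8.30, 8.84, 9.34 and 9.20 log2 in GFP+ arrays and 13.55, 13.96, 13.90 and 14.56 in GFP- arrays, 33.7-fold lower in GFP+ cells (-5.07, SE 0.21, adjusted p = 1.84e-07). Junb (-3.51, SE 0.25), Fosb (-2.31, SE 0.29) and Fosl2 (-1.72, SE 0.29) were lower as well. Jun was lower by a small amount (-0.42, SE 0.10) and was not called without the replicate block (adjusted p = 0.09), under median centring (-0.15) or without replicate 4 (-0.38, adjusted p = 0.066), and Jund was not called (0.08; -0.42 with arrays centred on receptors, -0.06 without replicates 3 and 4). Of 9 Egr, Nr4a, Arc and Npas4 genes 5 were lower and 0 higher: Egr1 read 7.94, 8.07, 8.04 and 8.25 against 11.98, 12.05, 12.54 and 12.00, 16.7-fold lower, Egr2 was at -2.65 (SE 0.16) and Nr4a1 at -1.34 (SE 0.25). Of 13 feedback regulators, which shut such responses down, 10 were lower and 0 higher. Rgs2, a G protein regulator, was under background in all GFP+ arrays and at least 34.5-fold lower, and Zfp36, which destabilises mRNA, at least 32.0-fold lower. Ier3 was at least 22.2-fold lower, and in it the GFP+ arrays of replicates 3 and 4 (7.79 and 7.97) stood above those of replicates 1 and 2 (5.85 and 6.19), as in Zfp36 (7.79 and 7.89 against 6.09 and 7.12). Dusp6, a MAP kinase phosphatase, was at -2.18 (SE 0.12) and Dusp1 at -0.53 (SE 0.10; -0.49, adjusted p = 0.061, without replicates 3 and 4). Btg2, an antiproliferative gene, read 7.20, 7.86, 7.56 and 7.81 against 12.34, 11.94, 12.05 and 12.69, 25.1-fold lower. The blood cell genes described below were lower in GFP+ cells too, and their part in these differences was not tested. In GFP+ arrays of replicates 1 to 4 the AP-1 list averaged 9.67, 9.71, 9.80 and 9.82. The Egr, Nr4a, Arc and Npas4 list averaged 6.615, 6.50, 6.64 and 6.47 there, and the feedback list 8.35, 8.54, 8.75 and 8.90. Without replicates 3 and 4 the difference of Fos was -5.19. The windows of Btg2 and Syn1 are shown because both hold the cAMP response element TGACGTCA, which is its own reverse complement and is read by CREB, while Btg2 was lower and Syn1 higher in GFP+ cells. The matches, in capitals, start at -166 and -159.
Btg2 chr1:134079106-134079405 (- strand): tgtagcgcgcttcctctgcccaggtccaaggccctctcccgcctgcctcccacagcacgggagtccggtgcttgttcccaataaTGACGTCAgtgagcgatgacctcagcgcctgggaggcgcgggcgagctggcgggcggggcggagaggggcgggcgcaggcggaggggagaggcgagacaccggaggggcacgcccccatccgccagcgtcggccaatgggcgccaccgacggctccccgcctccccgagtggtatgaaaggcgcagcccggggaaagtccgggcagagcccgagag
Syn1 chrX:20920869-20921168 (- strand): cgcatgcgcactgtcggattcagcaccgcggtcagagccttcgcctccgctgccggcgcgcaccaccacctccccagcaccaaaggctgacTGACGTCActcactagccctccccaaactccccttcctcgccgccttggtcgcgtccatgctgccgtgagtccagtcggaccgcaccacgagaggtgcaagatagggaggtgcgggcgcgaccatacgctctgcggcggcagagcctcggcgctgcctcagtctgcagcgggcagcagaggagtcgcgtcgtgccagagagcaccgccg
The element stood in 2 of 12 windows of feedback regulators (Btg2 and Dusp1), in 0 of 7 of AP-1 genes, in 2.42% of all windows, in 3.05% of windows of higher genes and in 1.72% of those of lower genes.

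Immature neurons and progenitors marked the GFP- fraction. Of 16 immature neuron markers 10 were lower and 0 higher, with a median of -0.65. Cxcr4, a chemokine receptor of young neurons that blood cells also express, read 6.91, 6.44, 7.51 and 7.94 log2 in GFP+ arrays and 12.59, 12.18, 11.92 and 12.83 in GFP- arrays. Gng8, a G protein subunit of immature neurons, read 7.19, 8.34, 7.68 and 7.93 against 11.38, 12.36, 11.88 and 12.23, 18.1-fold lower, and was lowest in GFP+ and GFP- cells of pool 1 alike. Dpysl3 (-3.16, SE 0.17), the transcription factor Sox11 (-2.43, SE 0.15), Gap43 of growth cones (-2.23, SE 0.21) and the microtubule regulator Stmn1 (-1.93, SE 0.11) were lower, and Ablim1 at least 3.11-fold. Dcx (0.28, and -0.21 with arrays centred on receptors) and Tubb3 (0.06, and -0.44 with that centring) were not called. Of 8 lineage regulators 7 were lower and 0 higher: Nhlh1, a factor of differentiating neurons, was at least 17.5-fold lower, Kit at least 8.60-fold, Insm1 at least 2.64-fold, and Nhlh2 was at -1.82 (SE 0.19). Of 17 cell cycle genes 15 were lower and 0 higher, with a median of -2.11. Mki67, the proliferation marker, read 6.59, 6.52, 6.93 and 7.33 in GFP+ and 12.79, 10.93, 11.69 and 12.04 in GFP- arrays, Ccnb2 was at -3.99 (SE 0.37) and Rrm2 at -3.11 (SE 0.24). The GFP- values of all 3 were lowest in replicate 2, where Gap43 and Dpysl3 were highest (12.98 and 13.25).

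Supporting and microvillar cells were also on the GFP- side. Of 7 sustentacular markers 5 were lower and 0 higher, with a median of -0.99. The keratins Krt18 (-2.92, SE 0.25) and Krt8 (-2.13, SE 0.22) differed most. Cyp2g1, a P450 enzyme of these cells, read 14.45, 14.33, 15.75 and 15.06 log2 in GFP+ arrays and 15.98, 15.83, 15.97 and 15.32 in GFP- arrays, so its gap was wide in replicates 1 and 2 and narrow in 3 and 4. Its difference was -0.88 (adjusted p = 0.034) and was not called without replicate 1 (-0.66, adjusted p = 0.15) or replicate 2 (-0.67, adjusted p = 0.13), while it was -1.52 without replicates 3 and 4. Cyp1a2 (-1.28) and Cyp2a5 (-0.99) were lost in the same way, without replicate 1 (-1.11 and -0.75) and without replicate 2 (-1.04 and -0.75), and Ermn was not called (-0.38). Of 4 Bowman gland markers 3 were lower: Sox9, a transcription factor, by -3.28 (SE 0.14), the peroxidase Gpx6 by -0.91 (adjusted p = 0.0078; 0.11 without the replicate block) and the water channel Aqp5 by -0.76 (SE 0.12). The odorant-binding lipocalins of the mucus followed the pool and not the fraction, with list means of 8.11, 7.96, 10.34 and 8.93 in GFP+ and 9.06, 7.97, 10.37 and 8.72 in GFP- arrays. Obp2a, the 1 of 5 called, was at -0.72 (adjusted p = 0.042) and was lost without the block (adjusted p = 0.57), without replicate 1 (-0.41, adjusted p = 0.17) and without replicate 2 (-0.63, adjusted p = 0.13). Of 25 alcohol and aldehyde dehydrogenases, enzymes that oxidise alcohols such as octanol, 2 were higher and 3 lower (1 and 3 without replicates 3 and 4), with a median of -0.00 that was 0.27 with arrays centred on their medians. Aldh9a1 was at least 4.97-fold lower, Aldh1a1 was at -0.64 (SE 0.13; not called without the block, adjusted p = 0.074) and Aldh5a1 at 0.61 (0.43, adjusted p = 0.085, without replicate 1).

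Of 9 markers of tuft-like microvillar cells 8 were lower and 0 higher, with a median of -2.35. Trpm5, a cation channel of these cells, was at least 12.6-fold lower, and Pou2f3, the factor that specifies them, read 6.83, 6.91, 7.49 and 7.33 log2 in GFP+ arrays and 9.30, 9.84, 10.01 and 9.81 in GFP- arrays (-2.60, SE 0.16). Gnat3 was at least 1.77-fold lower, and Alox5ap, which blood cells share, was at -4.41 (SE 0.27). Of 6 ionocyte-like markers 5 were lower, with a median of -2.37: Foxi1, their transcription factor, was at -3.40 (SE 0.19), Cftr, a chloride channel, at least 7.32-fold lower, Ascl3 at least 4.84-fold lower and Coch at -1.87 (SE 0.19). Of 6 necklace and Trpc2 neuron genes 2 were lower and 1, Gucy1b2, higher (2 and 0 without replicates 3 and 4), with a median of -0.05. Pde2a, a phosphodiesterase of necklace glomerulus neurons, was lower by -3.19 (SE 0.18), at 7.87 to 8.36 in GFP+ and 11.11 to 11.43 in GFP- arrays. Car2, a carbonic anhydrase of the same neurons, was lower by -0.71 (SE 0.13). Markers of ensheathing glia (1 of 6 lower), endothelium (2 of 7, and 1 without replicates 3 and 4), fibroblasts (0 of 5, and 1 without them) and horizontal basal cells (1 of 5 lower, 1 higher) differed in few members.

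Blood cell genes had the deepest falls. All 14 neutrophil genes were lower in GFP+ cells, with a median of -6.68, and 13 of 14 monocyte and macrophage genes, with a median of -4.38. S100a8, a calcium-binding protein of neutrophils, read 7.68, 7.78, 10.01 and 10.78 log2 in GFP+ arrays and 17.04, 16.03, 16.12 and 16.57 in GFP- arrays, 166-fold lower. Ngp, a granule protein, read 9.94, 9.90, 11.58 and 13.22 against 17.88, 17.40, 17.37 and 17.88, 88.7-fold lower. Both were above background in GFP+ cells, and the GFP+ arrays of replicates 3 and 4 were several times brighter than those of 1 and 2. Without these pools the differences were -8.80 for S100a8, -7.72 for Ngp and -8.13 for Retnlg, against -7.38, -6.47 and -6.80 with all pools. The granule genes Ltf (-6.76), Elane (-6.04), Mpo (-6.01) and Prtn3 (-2.52), made by immature neutrophils, were lower too. Of the monocyte genes, Ly6c2 read 6.77, 6.69, 8.40 and 9.34 against 14.67 to 15.66, the master factor Spi1 was at -6.16 (SE 0.29), the Fc receptor chain Fcer1g at -5.92 (SE 0.32), and Lyz2, lysozyme, at -5.66 (SE 0.34). Csf1r, the growth factor receptor of macrophages, was at least 9.06-fold lower, Adgre1 (F4/80) at -0.88 (SE 0.14), and Mrc1, of tissue macrophages, was not called (-0.87, adjusted p = 0.084), but was without replicate 3 (-1.24, adjusted p = 0.028). Genes in no list with equal falls included Ifitm6 (-6.83), Chil3 (-6.79), Ncf1 (-6.40), Emp3 (-6.27), Arhgdib (-6.22), Stfa2l1 (-5.93), Cybb and Cd24a (both -5.71), S100a11 (-5.68), Clec12a (-5.65), Vsir (-5.49) and Ifitm2 (-5.47), and Cybb and Ncf1 encode parts of the phagocyte oxidase.

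**Figure D4:**
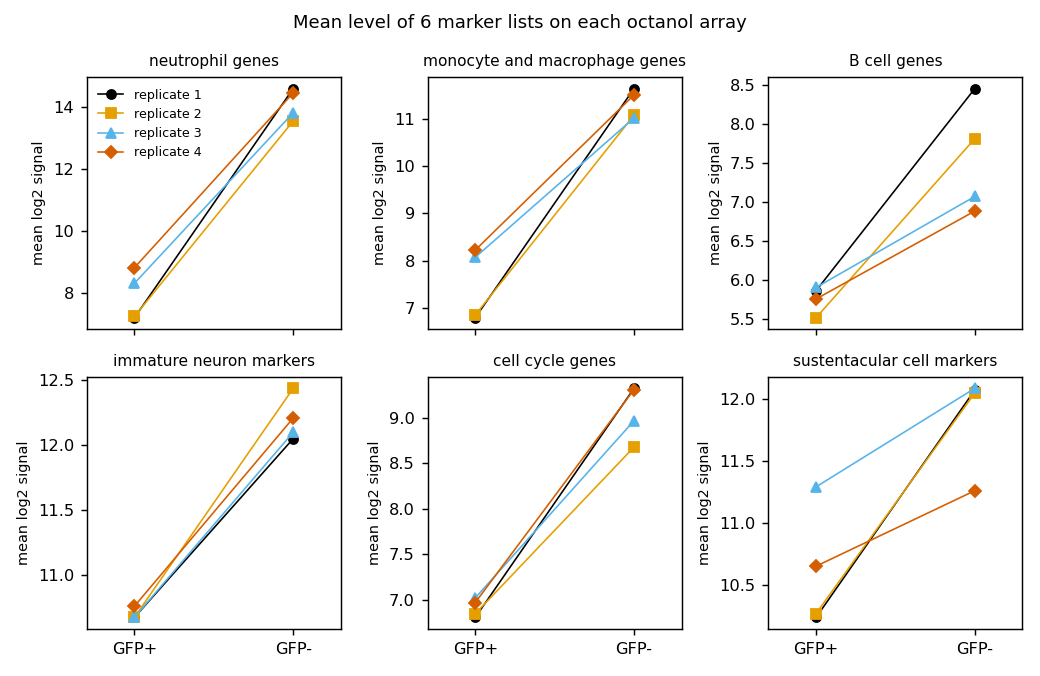
Mean log2 signal of 6 marker lists (y axis) in the GFP+ and GFP- arrays (x axis), with 1 line per replicate. In GFP+ arrays of replicates 3 and 4 the neutrophil list stood at 8.32 and 8.82 against 7.21 and 7.26, and the sustentacular list at 11.29 and 10.65 against 10.24 and 10.27, while the immature neuron list was within 10.67 to 10.76.

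The other blood lineages were lower in GFP+ cells to a lesser depth. Of 6 MHC class II genes 5 were lower: H2-Ab1 read 7.72, 7.89, 8.06 and 7.99 log2 in GFP+ arrays and 13.72, 13.22, 12.26 and 12.57 in GFP- arrays (-5.03, SE 0.32), H2-Aa was at -5.001 (SE 0.27) and H2-Eb1 at -3.53 (SE 0.27). Of 8 B cell genes 5 were lower: Cd79a read 11.70, 11.01, 9.26 and 9.24 in GFP- arrays and was at least 12.1-fold lower, and Cd79b at least 9.75-fold. The B cell list mean in GFP- arrays was 8.46, 7.81, 7.07 and 6.89, so GFP- cells of replicates 1 and 2 carried more of it, an order that the neutrophil list does not show. Of 8 T and NK cell genes 6 were lower, with Gzma at least 4.76-fold and Cd3e at least 1.34-fold lower. Of 4 erythroid genes 3 were lower: Slc4a1, the anion exchanger of red cells, by -3.22 (SE 0.24), Alas2 by -2.08 (SE 0.27) and Epb42 by at least 2.11-fold. Of 17 chemokines and receptors 10 were lower and 1 higher. Ccl9 was at least 33.3-fold and Ccr2 at least 31.5-fold lower, while Cx3cl1, a chemokine that neurons make, was higher by 0.96 (SE 0.18), at 7.65 to 8.08 in GFP+ and 6.72 to 7.08 in GFP- arrays. Interferon-stimulated genes were split, with 2 higher and 3 lower of 11 (1 and 2 without replicates 3 and 4). Ifit1 (1.01, SE 0.12) and Ifit2 (0.58, SE 0.12; 0.08 with arrays centred on receptors) were higher, and Bst2 (-1.63, SE 0.25) and Irf7 (at least 1.35-fold) lower. Ifit1 read 11.27, 10.90, 11.50 and 10.93 against 10.41, 9.66, 10.37 and 10.11.

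Ribosomal protein genes, which all cells transcribe, were lower as a group: 52 of 59 were lower and 0 higher, with a median of -0.73. Their median was -0.46 with arrays centred on their medians, where 38 were lower and 2 higher. Rplp0, of the ribosomal stalk, read 10.55, 11.14, 10.98 and 11.02 log2 in GFP+ arrays and 12.98, 12.65, 12.57 and 12.80 in GFP- arrays, 3.56-fold lower. Rps16 (-1.41), Rpl39 (-1.29) and Rps21 (-1.26) followed. The list mean was 12.95, 12.90, 13.10 and 13.11 in GFP+ arrays and 14.03, 13.74, 13.55 and 13.67 in GFP- arrays. It thus differed by -1.08, -0.83, -0.45 and -0.55 in pools 1 to 4. The gap was narrower in pools 3 and 4, with both fractions shifted, and the cause was not tested. Subunits of the respiratory chain, also made by all cells, showed 4 higher and 1 lower of 65 (0 and 1 without replicates 3 and 4), with a median of 0.09 (-0.41 with arrays centred on receptors).

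Regulators of receptor choice were nearly even, with 2 higher and 1 lower of 12 (0 and 1 without replicates 3 and 4). Lbr, the lamin B receptor, whose loss from neuronal nuclei gathers receptor loci at the centre, was lower by -1.89 (SE 0.17), at 10.47 to 10.61 in GFP+ and 12.10 to 12.91 in GFP- arrays. The GFP- fraction also holds cells other than neurons, and which cells its Lbr signal came from was not tested. Ebf2 was just past the threshold (0.31, adjusted p = 0.045; -0.19 with arrays centred on receptors) and was not called without replicate 1 (0.21), replicate 2 (0.36), replicate 3 (0.32) or replicate 4 (0.34). Of 12 genes of the unfolded protein response, which receptor synthesis triggers, 2 were higher and 1 lower (0 and 0 without replicates 3 and 4), with a median of 0.13 (-0.37 with arrays centred on receptors). Xbp1 was at -0.50 (SE 0.12), and at -0.43 (adjusted p = 0.052) without replicate 1. Dnajb9 was at 0.31 (adjusted p = 0.026; -0.19 with arrays centred on receptors) and was not called without replicate 1 (0.30), replicate 3 (0.29) or replicate 4 (0.32), nor without the block (adjusted p = 0.15). Of 6 heat shock genes 1 was higher and 2 lower (0 and 2 without replicates 3 and 4). Hspa1a, an inducible chaperone, read 10.25, 11.31, 9.21 and 9.42 in GFP+ and 13.67, 12.55, 9.36 and 11.19 in GFP- arrays (-1.64, adjusted p = 0.011), with a gap that was widest in replicate 1 and nearly closed in replicate 3. It was -1.05 without replicate 1 and was not called without the block (adjusted p = 0.14). Of 10 Bcl2 family genes 1 was higher and 3 lower (0 and 2 without replicates 3 and 4), led by Mcl1, a survival factor that blood cells depend on (-1.52, SE 0.18).

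The same contrast was set against the vehicle arrays to ask whether the gap between fractions depended on the odor. No gene passed the limma test of the difference between the exposures after adjustment over all genes (0 of 19505), and 886 (4.54%) had an unadjusted p under 0.05. After vehicle 2871 genes (14.7%) were higher and 2631 (13.5%) lower. Of the 3257 genes higher after octanol 1482 were not called after vehicle, and 1094 genes were higher after vehicle and not called after octanol. Of the lower genes, 268 were called after octanol alone and 332 after vehicle alone. With an adjusted test that calls none, these sets are not shown to differ between exposures. Of the 1482 genes higher after octanol and not called after vehicle, 212 had an unadjusted limma p under 0.05 for the difference. Those 1482 were picked by their calls in these same data. Prl7a2 (-0.44) and 2310050C09Rik (-0.45) were the 2 genes called in opposite directions, both under background on all 8 octanol arrays and neither called when any 1 octanol replicate was left out (-0.38 to -0.50 and -0.37 to -0.54). The receptor with the smallest p was Olfr95, at 12.18, 12.52, 11.43 and 12.33 log2 in GFP+ and 10.04, 10.39, 9.94 and 10.89 in GFP- arrays after octanol, with no overlap. Its octanol difference was 1.80 (SE 0.16) and its vehicle difference 0.24, which differ by 1.56 (SE 0.22, adjusted p = 0.863). The GFP+ mean was 12.12 ± 0.48 after octanol and 11.77 ± 0.43 after vehicle (SD, n = 4), a gap within the SD. The GFP- mean was 10.32 ± 0.43 after octanol and 11.54 ± 0.46 after vehicle, and neither gap was tested. Olfr715b (1.49 against 0.17), Olfr738 (2.88 against 1.76) and Olfr1151 (3.80 against 2.95) had the next smallest p among receptors, each with an adjusted p of 0.999 for the difference.

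**Figure D5:**
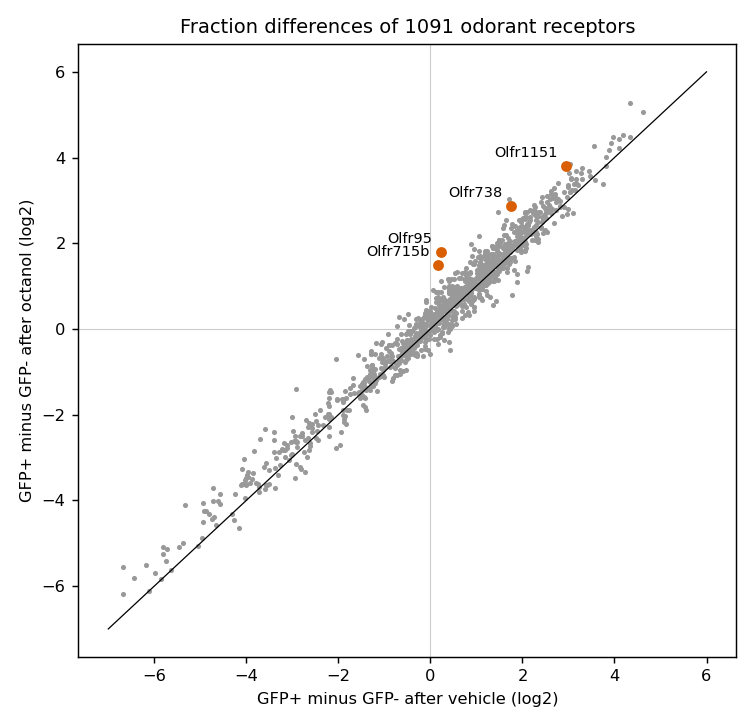
GFP+ minus GFP- difference (log2) of the 1091 odorant receptors after vehicle (x axis) and after octanol (y axis), with the line of equal differences and 4 receptors in orange. Olfr95 lies at 0.24 and 1.80 and Olfr715b at 0.17 and 1.49, while most receptors lie near the line.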

How the data were processed

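The authors deposited log2 values per probe set, made with Affymetrix Expression Console per the submitters' processing notes, from Clariom S arrays; which version and which settings were used is not stated in these sources. Of 28846 probe sets, 6640 were controls and 19572 carried 1 gene symbol; the probe set of highest mean was kept per gene (67 left out), giving 19505 genes. Values entered limma 3.58.1 (R 4.3.3) as deposited, with all 16 arrays, the 4 groups and the pool as a block, a constant eBayes prior and Benjamini-Hochberg adjustment; genes under an adjusted p of 0.05 are called. Background was the 95th percentile, 6.32 log2, of the means of 319 vomeronasal receptor genes. Where the dimmer fraction was at or under it on any array, the fold is a bound. The fit was tested on simulated data. Precision is limited by the number of arrays, 4 per group.

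Replicate numbers were taken as pools because 24 mice make 8 pools of 3; this is an inference from the mouse number. Residuals of the 2 fractions of octanol pools 1 to 4 correlated at 0.099, 0.214, 0.157 and 0.222. Fractions of different octanol pools correlated at -0.231 to 0.115, and an octanol and a vehicle pool reached 0.206. Whole octanol arrays of the 2 fractions correlated at 0.9447 to 0.963 within a replicate number and 0.9436 to 0.9648 across numbers. These values do not settle the pairing. Genes named are S100a5, Omp, the 12 largest rises and falls among receptors, other genes and genes in no list, the 8 largest bounds, up to 4 members per list and direction, defining markers, known-ligand receptors, genes called in opposite directions after octanol and vehicle, those of smallest p for the difference between exposures, and neighbours of named receptors; some weakly called members were left out for space. Members and lists were chosen with earlier results of these data known. Alternatives covered scaling, block, prior, filter, probe set rule, octanol arrays alone and each pool left out. Promoter windows are RefSeq's (GRCm38.p6), found for 15691 genes.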

Additional observations from a re-analysis of the deposited data

Results flagged for a closer look

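In 10 of 227 genes checked, 1 pool's GFP+ minus GFP- difference (log2) stood apart from the other 3 pools by Dixon's criterion, which chance alone meets in about 1 in 20 genes, so the number of such genes is no more than chance gives. Pool 1 stood apart in Olfr15 (3.08 against 1.87 to 2.06), Zfp36 (-6.04 against -4.76 to -4.71) and Mpo (-6.63 against -5.88 to -5.76). Pool 2 stood apart in Olfr970 (4.69 against 3.09 to 3.14), Dpysl3 (-3.73 against -2.995 to -2.94) and Pou2f3 (-2.93 against -2.52 to -2.47). Pool 4 stood apart in Scn2a (0.96 against 0.42 to 0.51), Fosl2 (-2.50 against -1.48 to -1.41), Krt8 (-1.23 against -2.46 to -2.41) and Bst2 (-0.56 against -2.09 to -1.87). In Olfr970 the GFP- array of pool 2 (6.13) and in Zfp36 the GFP+ array of pool 1 (6.09) were under the background of 6.32, so the difference of that pool is not a measured one and does not show that the pool stood apart. All 10 genes had the same sign in all 4 pools.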

How the results depend on the processing

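Scaling moved the counts most: 536 genes were higher and 8740 lower with arrays centred on receptors, with 363 receptors lower, and 11401 genes were higher with arrays centred on their medians. Leaving out 1 octanol pool left 1799 to 2680 higher and 2170 to 2350 lower genes, with 442 to 483 receptors higher and 199 to 217 lower; 1585 genes were higher without replicates 3 and 4, an alternative chosen after seeing the data. Without the replicate block 2806 genes were higher and 2474 lower, with 507 and 226 receptors, so the pairing moved no count by over 1.5 times. With arrays centred on receptors the sign turned for Omp (-0.38), Olfr558 (-0.17), Sema3f (-0.011), Slit1 (-0.020), Ric8b (-0.17), Adcy3 (-0.18), Cnga4 (-0.20), Jund (-0.42), Tubb3 (-0.44), Dcx (-0.21), Dnajb9 (-0.19), Ebf2 (-0.19) and Rtp2 (-0.11). Olfr545 turned with arrays centred on their medians (0.022), after quantile normalization (0.050) and without replicate 2 (0.045; -0.47 without replicate 4), and Jund without replicates 3 and 4 (-0.064). List medians took the other sign in 17 of 51 lists with arrays centred on receptors and in 4 with arrays centred on their medians. The cause of these changes was not tested.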
